A study of Homo sapiens with 9 samples.

Results

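The aldehyde dehydrogenase genes are described here after stable knockdown of PRMT5 or of its partner MEP50 in A549, a human lung adenocarcinoma cell line. The 10 members (ALDH1A1, ALDH1A3, ALDH1B1, ALDH2, ALDH3A1, ALDH3A2, ALDH3B1, ALDH7A1, ALDH9A1 and ALDH18A1) were taken by symbol from a table of 51796 genes that holds 19 ALDH genes. They were chosen by measured values, namely because most ALDH genes were lower in the PRMT5 knockdown than in the MEP50 knockdown, so the difference between the knockdowns is given as a description with no test. All 10 members had enough reads to be tested, among 14582 tested genes. Every library came from cells grown in RPMI with 10% fetal bovine serum and kept under puromycin at 1 ug/ml, and carried a short hairpin RNA against GFP (the control), PRMT5 or MEP50, with 3 biological replicates per group. PRMT5 places symmetric dimethyl marks on arginines, and MEP50, encoded by WDR77, is its partner in the methylosome. The labels do not say how many hairpins were used per target or whether a line was a clone or a pool, so loss of a target and effects of its hairpin or line cannot be told apart. Against the GFP control each member was tested in each knockdown, and those comparisons share the control libraries with each other and the knockdown libraries with the choice of members.

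Most aldehyde dehydrogenases oxidise aldehydes to acids with NAD or NADP. The ALDH1A enzymes turn retinal into retinoic acid, the mitochondrial ALDH1B1 and ALDH2 oxidise acetaldehyde and related small aldehydes, and the ALDH3 enzymes act on fatty and aromatic aldehydes, many of them products of lipid peroxidation. Other members have steps in lysine breakdown, carnitine synthesis and proline synthesis. A549 cells are widely used as a line with high ALDH1A1, and ALDH1A1 activity is often used to sort stem-like tumour cells.

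Reads on genes numbered 20806181 to 31586128 per library, and the members held 183 to 91428 reads each in a library. Reads assigned to no annotated feature made up 12.1 ± 0.296%, 14.2 ± 0.453% and 13.2 ± 0.753% in control, PRMT5 and MEP50 knockdown (SD, n = 3). These are shares of all entries of the count table, its summary lines included. The part of this share in the results was not tested. PRMT5 was at 33.1% of its control level in its own knockdown, and WDR77 at 31.8% in its own. Of 6 epithelial markers, KRT8 and KRT18 carried nearly all reads, and KRT7 and CDH1 had far fewer. KRT19 and EPCAM were under 1 CPM (read counts scaled to the library's reads on the tested genes with TMM factors). KRT19 had 0 to 2 reads per library, and whether the strand setting or overlapping annotation lowered such counts was not tested, so a count near 0 in this table does not show that a gene is silent. The summed epithelial level was 6345 to 6575.5 CPM in the control libraries, 4154 to 4313 CPM in the PRMT5 knockdown and 3869.7 to 4147 CPM in the MEP50 knockdown, but the single markers did not move together. KRT8 and KRT18 fell in both knockdowns (log2 fold change -0.63 and -0.61 with PRMT5 knockdown, -0.74 and -0.67 with MEP50 knockdown). CDH1 went from 40.1 CPM in the control to 34.9 CPM in the PRMT5 knockdown (-0.20, called lower) and 75.6 CPM with MEP50 knockdown (0.92, called higher). KRT7 was at 0.38 in the PRMT5 knockdown, which did not pass, and rose by 0.74 with MEP50 knockdown. Of 10 matched markers of fibroblasts, blood and endothelium, 8 were under 1 CPM on average, CD3E and HBB had no read, and the sum was 20.2 to 22.0, 22.3 to 26.3 and 32.4 to 36.2 CPM, most of it CD68 and LUM. These also moved apart: LUM was at 5.17, 0.629 and 7.90 CPM in control, PRMT5 and MEP50 knockdown, and CD68 at 15.7, 23.2 and 26.9 CPM, with all 4 differences from the control past the test. The part of these markers in the results was not tested.

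ALDH1A1 made up most of the family's RNA in every library. Of the members' reads it held 75.8 ± 0.241% in control libraries, 70.0 ± 0.273% after PRMT5 knockdown and 71.9 ± 0.336% after MEP50 knockdown (SD, n = 3). The control level per kilobase of the longest principal transcript was 1473 ± 32.8 CPM for ALDH1A1, against 76.9 ± 1.97 CPM for ALDH3A2, the next in order, and 2.21 ± 0.184 CPM for ALDH1A3, the lowest. The order of the middle genes depended on the length used. By all annotated exons ALDH1B1, ALDH18A1 and ALDH9A1 followed at 34.2 ± 0.369, 32.2 ± 1.36 and 31.7 ± 0.784 CPM per kilobase, the last pair within their spread, and then ALDH3B1 (20.8 ± 0.733) and ALDH3A1 (20.2 ± 0.436), also within their spread. By the principal transcript ALDH3B1 (49.4 ± 1.74) and ALDH3A1 (41.0 ± 0.887) stood above ALDH9A1 (38.9 ± 0.962), ALDH18A1 (36.1 ± 1.52) and ALDH1B1 (35.2 ± 0.379). ALDH7A1, ALDH2 and ALDH1A3 were the lowest by both lengths. The standard deviation over replicates was between 1.08% and 8.54% of the mean for the 10 members in the 3 groups.

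**Figure D1:**
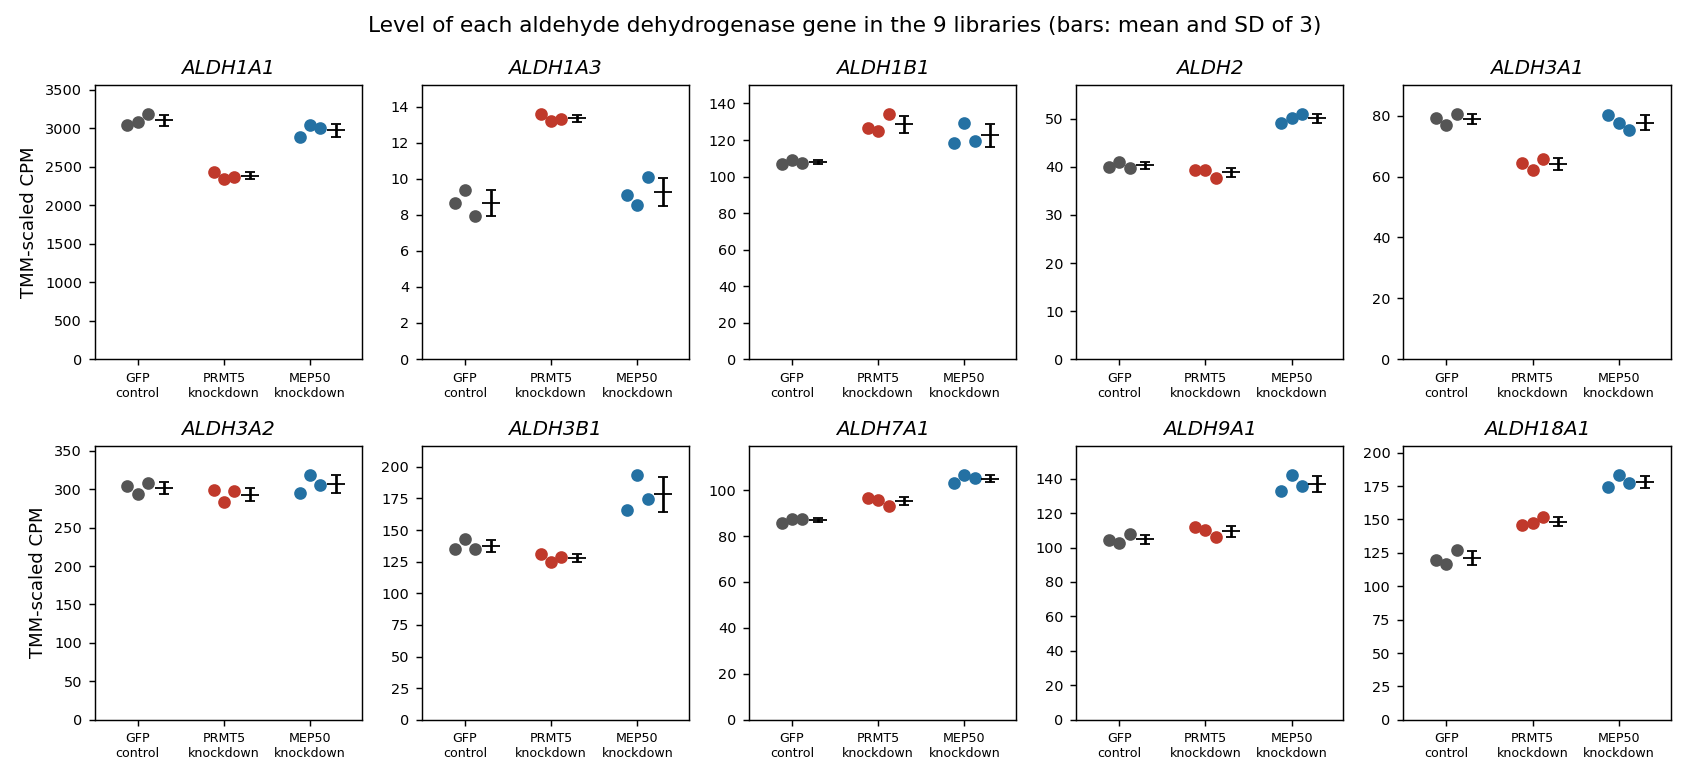
Level of each member in TMM-scaled CPM (y axis, from 0, on a scale of its own per gene) in the 3 libraries of each group, with the mean and SD beside the points. ALDH1A1 and ALDH3A1 were lowest in the PRMT5 knockdown, ALDH1A3 was highest there, and ALDH2, ALDH3B1, ALDH9A1 and ALDH18A1 were highest in the MEP50 knockdown.

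The members went both ways in the PRMT5 knockdown and mostly up after MEP50 knockdown. In the PRMT5 knockdown 4 members rose (ALDH1A3, ALDH1B1, ALDH7A1 and ALDH18A1), 3 fell (ALDH1A1, ALDH3A1 and ALDH3B1) and 3 did not pass the test (edgeR's quasi-likelihood test, Benjamini-Hochberg adjusted p below 0.05). Of all tested genes 51.0% were called in this comparison, 26.1% higher and 24.9% lower. In the MEP50 knockdown 6 members rose (ALDH1B1, ALDH2, ALDH3B1, ALDH7A1, ALDH9A1 and ALDH18A1), 1 fell (ALDH1A1) and 3 did not pass, where 51.7% of all tested genes were called, 26.5% higher and 25.2% lower. By library values, 4 members lay wholly above and 4 wholly below the control in the PRMT5 knockdown (29.3% and 27.9% of all tested genes), and 6 lay wholly above and 1 wholly below it in the MEP50 knockdown (28.7% and 28.2%). The median log2 fold change of the members was 0.0091 in the PRMT5 knockdown and 0.23 after MEP50 knockdown, beside 0.0032 and -0.0019 over all tested genes. The family was chosen by lower values in the PRMT5 than in the MEP50 knockdown. That choice favours higher values after MEP50 knockdown, so these counts and medians are not independent of it. No member changed by 2-fold or more. Of the 14582 tested genes 1057 and 1095 did so past the test in the PRMT5 and the MEP50 knockdown, so such a change was uncommon among all genes too. In bulk RNA fewer cells that express a gene and less RNA per cell cannot be told apart.

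The retinal-oxidising members moved in opposite directions in the PRMT5 knockdown. ALDH1A1 (ENSG00000165092), the cytosolic retinal dehydrogenase, was at 3048, 3082.5 and 3181 CPM in control libraries 1, 2 and 3, at 2435, 2340.3 and 2373 CPM in the PRMT5 knockdown, and at 2882, 3039 and 2999 CPM in the MEP50 knockdown. All PRMT5 knockdown libraries lay below every other library, and the MEP50 knockdown libraries lay just below the control. Its log2 fold change in the PRMT5 knockdown was -0.38 ± 0.0243 (SE; 76.8% of control; edgeR adjusted p = 7.42e-17). In the MEP50 knockdown it was -0.06 ± 0.0243 (95.8% of control; edgeR adjusted p = 0.0308), and it no longer passed without control replicate 3 (-0.04, edgeR adjusted p = 0.198) or MEP50 knockdown replicate 1 (-0.03, edgeR adjusted p = 0.251). The authors' deposited table of the PRMT5 knockdown gives ALDH1A1 a log2 fold change of -0.38 by DESeq2, and ALDH1A1 is not in the authors' deposited table of the MEP50 knockdown, in which all adjusted p-values are at most 0.04996.

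ALDH1A3 (ENSG00000184254), the second retinal dehydrogenase of the line, was counted 217, 278 and 219 times in the control, 344, 409 and 422 times in the PRMT5 knockdown and 188, 183 and 287 times in the MEP50 knockdown. These counts correspond to 8.66, 9.37 and 7.93 CPM, 13.6, 13.2 and 13.3 CPM, and 9.09, 8.56 and 10.1 CPM. The PRMT5 knockdown libraries lay above all others, and the MEP50 knockdown overlapped the control. The rise in the PRMT5 knockdown was 1.54-fold (log2 fold change 0.62 ± 0.102, edgeR adjusted p = 2.20e-06), the largest of any member in either knockdown. In the MEP50 knockdown the value was 0.10 ± 0.109 (edgeR adjusted p = 0.463). GENCODE 29 annotates opposite-strand genes that overlap exons of ALDH1A3, ALDH3A1 and ALDH9A1. It also annotates same-strand genes that overlap exons of ALDH1A3, ALDH2 and ALDH9A1. The effect of these overlaps on the counts was not tested. The strand setting of the counting was not given in the sources used here, so reads of the 2 strands cannot be told apart at the opposite-strand overlaps.

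The sequences just before the start sites of these 2 genes are shown because the genes share an enzyme activity and moved in opposite directions. RefSeq's promoter table (GRCh38.p14, while the reads were counted on hg19) held 8 of the 10 members with 10 start sites, and ALDH2 and ALDH3A1 were not among them. Each line gives the 250 bases before the start, 5′ to 3′ on the gene's strand, with capitals marking CCAAT and GGGCGG on either strand; for ALDH1A1 the window is chr9:72953054-72953303 (minus strand) and for ALDH1A3 chr15:100879581-100879830 (plus strand).
ALDH1A1: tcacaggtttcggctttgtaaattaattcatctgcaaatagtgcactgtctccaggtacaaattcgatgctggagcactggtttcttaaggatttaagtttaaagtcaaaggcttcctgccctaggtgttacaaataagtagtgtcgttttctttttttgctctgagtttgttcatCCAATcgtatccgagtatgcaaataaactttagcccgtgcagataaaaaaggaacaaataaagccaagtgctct
ALDH1A3: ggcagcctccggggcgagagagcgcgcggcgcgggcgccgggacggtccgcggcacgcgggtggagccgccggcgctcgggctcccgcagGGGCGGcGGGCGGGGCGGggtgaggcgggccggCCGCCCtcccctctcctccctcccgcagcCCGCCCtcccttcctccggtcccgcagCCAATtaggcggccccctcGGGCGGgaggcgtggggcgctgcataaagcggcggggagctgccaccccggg

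The windows differed in base composition. That of ALDH1A1 held 38.4% G and C with 6 CpG pairs, and that of ALDH1A3 82.4% with 38, beside a median of 58.0% and 11 CpG pairs over 35116 windows of the same length. Only 10.1% of those windows held less G and C than that of ALDH1A1, and 98.6% held less than that of ALDH1A3. Both held 1 CCAAT box, which begins 74 bases before the start in ALDH1A1 and 71 bases before it in ALDH1A3, and a CCAAT box was in 5 of the members' 10 windows and in 32.0% of all windows. The GC box GGGCGG was found 6 times in the ALDH1A3 window, with 1 pair of matches that overlap by a base, and was not found in that of ALDH1A1, with 6 of 10 member windows and 42.6% of all windows holding it. TGACNNNGC, the core of the antioxidant response element, and TATAAA were in none of the 10 member windows and in 10.9% and 10.7% of all windows, both strands being searched for each motif. A match or its lack describes these letters in this window only.

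**Figure D2:**
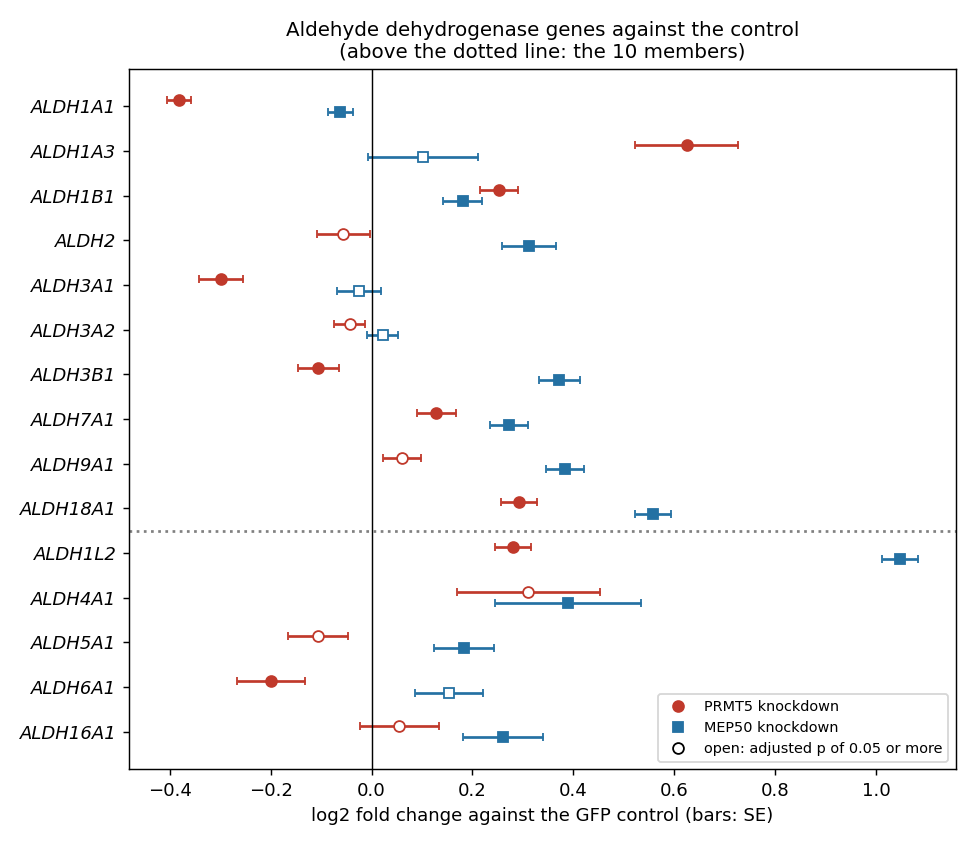
Log2 fold change against the GFP control (x axis, bars are SE) of the 15 tested ALDH genes in the PRMT5 knockdown (circles) and the MEP50 knockdown (squares), with open symbols where the adjusted p was 0.05 or more. ALDH1A1 and ALDH3A1 lie farthest to the left in the PRMT5 knockdown, and ALDH18A1 lies farthest to the right of the 10 members in the MEP50 knockdown.

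The mitochondrial acetaldehyde-oxidising members were higher than the control in the MEP50 knockdown, and ALDH1B1 was higher in the PRMT5 knockdown too. ALDH2 (ENSG00000111275), the main acetaldehyde dehydrogenase of the body, was at 40.1, 41.1 and 39.9 CPM in the control, 39.4, 39.5 and 37.7 CPM in the PRMT5 knockdown and 49.2, 50.1 and 51.0 CPM in the MEP50 knockdown. The MEP50 knockdown libraries stood clear of the other 6, and the PRMT5 knockdown libraries were all slightly below the control. The rise in the MEP50 knockdown was 1.24-fold (log2 fold change 0.31 ± 0.0533, edgeR adjusted p = 4.02e-06), and the value in the PRMT5 knockdown was -0.06 ± 0.0535 (edgeR adjusted p = 0.407). ALDH1B1 (ENSG00000137124), its mitochondrial relative, rose in both, from 108 ± 1.16 CPM in the control to 129 ± 4.83 CPM in the PRMT5 knockdown and 122 ± 6.07 CPM after MEP50 knockdown (SD, n = 3). Its control libraries, at 107 to 109 CPM, lay below all 6 knockdown libraries, which overlapped each other at 125 to 134 CPM and 119 to 129 CPM. The log2 fold changes were 0.25 ± 0.0383 and 0.18 ± 0.0389, with edgeR adjusted p = 5.26e-07 and 0.000142.

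The ALDH3 members differed from each other. ALDH3A1 (ENSG00000108602), a cytosolic enzyme that oxidises aromatic and medium-chain aldehydes, was at 79.3, 77.1 and 80.5 CPM in the control, 64.5, 62.1 and 65.9 CPM in the PRMT5 knockdown and 80.2, 77.5 and 75.2 CPM in the MEP50 knockdown. The PRMT5 knockdown libraries were the lowest of the 9, and the others overlapped. ALDH3A1 fell in the PRMT5 knockdown (log2 fold change -0.30 ± 0.0433, edgeR adjusted p = 2.16e-07), and its value in the MEP50 knockdown was -0.02 ± 0.0435 (edgeR adjusted p = 0.661). ALDH3A2 (ENSG00000072210), the fatty aldehyde dehydrogenase of the endoplasmic reticulum, was at 302 ± 7.75, 293 ± 8.50 and 307 ± 11.4 CPM in control, PRMT5 and MEP50 knockdown libraries. Its libraries overlapped in both comparisons, and the log2 fold changes of -0.04 ± 0.0309 and 0.02 ± 0.0311 did not pass (edgeR adjusted p = 0.257 and 0.58). ALDH3B1 (ENSG00000006534), which acts on aldehydes from lipid peroxidation, was at 135, 143 and 135 CPM in the control, 131, 125 and 128 CPM in the PRMT5 knockdown and 166, 194 and 175 CPM in the MEP50 knockdown. No library of one group reached the range of another. Its rise in the MEP50 knockdown was 1.29-fold (log2 fold change 0.37 ± 0.0405, edgeR adjusted p = 8.78e-10). Its fall in the PRMT5 knockdown (-0.11 ± 0.0407, edgeR adjusted p = 0.0302) was lost without control replicate 2 (-0.08, edgeR adjusted p = 0.167) or PRMT5 knockdown replicate 2 (-0.09, edgeR adjusted p = 0.109).

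The members of proline synthesis, carnitine synthesis and lysine breakdown were highest in the MEP50 knockdown. ALDH18A1 (ENSG00000059573), which makes the proline precursor pyrroline-5-carboxylate from glutamate, was at 120.0, 117 and 127 CPM in the control, 146, 147 and 152 CPM in the PRMT5 knockdown and 174, 183 and 177.5 CPM in the MEP50 knockdown. The 3 groups did not overlap. It rose 1.22-fold in the PRMT5 knockdown (log2 fold change 0.29 ± 0.0354) and 1.47-fold in the MEP50 knockdown (0.56 ± 0.0355), with edgeR adjusted p = 4.53e-09 and 6.71e-17. ALDH9A1 (ENSG00000143149), which oxidises an aldehyde of carnitine synthesis, was at 104, 102 and 108 CPM in the control, 112, 109.9 and 106 CPM in the PRMT5 knockdown and 133, 142 and 136 CPM in the MEP50 knockdown. The MEP50 knockdown libraries stood above the other 6, which overlapped, and the log2 fold changes were 0.38 ± 0.0376 (edgeR adjusted p = 1.94e-11) in the MEP50 knockdown and 0.06 ± 0.0376 (edgeR adjusted p = 0.179) in the PRMT5 knockdown. ALDH7A1 (ENSG00000164904), an enzyme of lysine breakdown, rose from 87.0 ± 1.06 CPM in the control to 95.1 ± 1.75 CPM in the PRMT5 knockdown and 105 ± 1.68 CPM after MEP50 knockdown, and no 2 groups overlapped. The log2 fold changes were 0.13 ± 0.0382 and 0.27 ± 0.0385 (edgeR adjusted p = 0.00468 and 1.16e-07). Its pseudogene ALDH7A1P1 held 12 to 30 reads per library.

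Between the knockdowns, the comparison by which the members were chosen, 8 of 10 members had a lower value in the PRMT5 knockdown. Of all tested genes 49.8% had a lower value there. For 7 members every PRMT5 knockdown library was below every MEP50 knockdown library, as for 24.2% of all tested genes. For 1 member (ALDH1A3) every library was above, as for 23.1%. The log2 differences (PRMT5 knockdown minus MEP50 knockdown) were -0.48 for ALDH3B1, -0.37 for ALDH2, -0.32 for ALDH1A1 and ALDH9A1, -0.27 for ALDH3A1 and ALDH18A1, -0.14 for ALDH7A1 and -0.07 for ALDH3A2, whose libraries overlapped. ALDH1A3 (0.52) and ALDH1B1 (0.07) had higher values in the PRMT5 knockdown, the latter with overlapping libraries. Similar differences came with different positions relative to the control. For ALDH1A1 and ALDH3A1 the PRMT5 knockdown lay apart from the control and the MEP50 knockdown lay near it, while for ALDH2 and ALDH9A1 the MEP50 knockdown lay apart and the PRMT5 knockdown lay near the control.

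The summed level of the 10 members was lower in the PRMT5 knockdown libraries than in the others. It was 4092 ± 79.3 CPM in control libraries, 3401 ± 60.9 CPM after PRMT5 knockdown and 4138 ± 119.6 CPM after MEP50 knockdown (SD, n = 3). Without ALDH1A1 the sum was 988 ± 11.04, 1019 ± 15.8 and 1164.5 ± 40.9 CPM. The members together took 0.410 ± 0.0069%, 0.342 ± 0.00577% and 0.410 ± 0.0107% of the reads on genes.

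**Figure D3:**
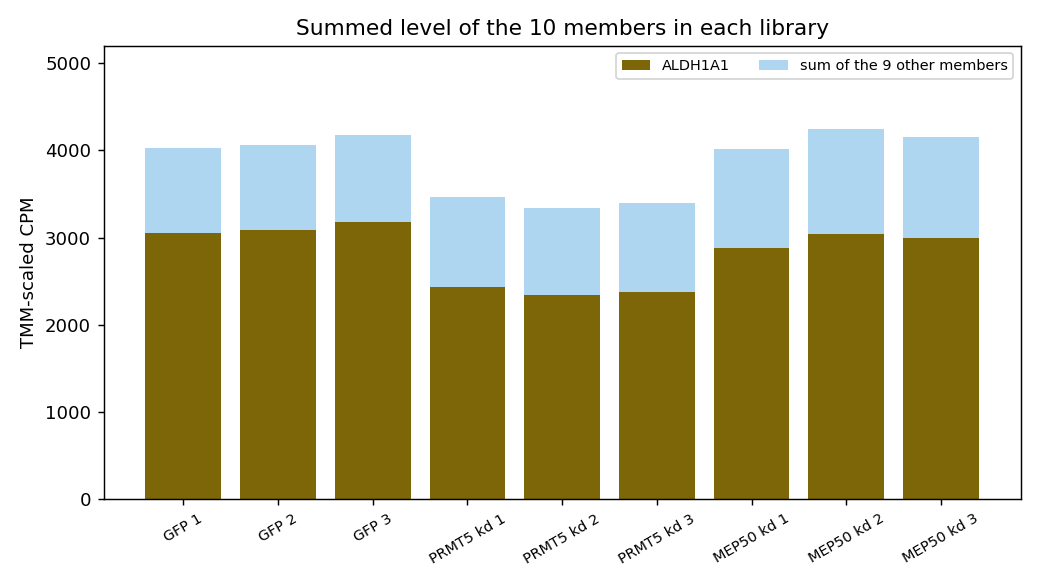
Summed TMM-scaled CPM of the 10 members (y axis, from 0) in each of the 9 libraries, divided into ALDH1A1 and the 9 other members. The ALDH1A1 part is lowest in the 3 PRMT5 knockdown libraries (2340.3 to 2435 CPM), and the part of the 9 others is highest in the 3 MEP50 knockdown libraries (1129.5 to 1209.5 CPM).

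The ALDH genes outside the 10 members included the largest rise of the family. Of 9 such genes 5 had enough reads, of which 1 rose and 1 fell in the PRMT5 knockdown, and 4 rose and none fell in the MEP50 knockdown. Of all tested genes 26.1% were called higher and 24.9% lower in the PRMT5 knockdown. In the MEP50 knockdown those shares were 26.5% and 25.2%. The 5 genes with enough reads all had a lower value in the PRMT5 than in the MEP50 knockdown, as had 49.8% of all tested genes. For ALDH4A1 this log2 difference was -0.08 and the libraries overlapped. The family was chosen by this contrast, so the 5 are not independent of the choice. ALDH1L2, the mitochondrial 10-formyltetrahydrofolate dehydrogenase, was at 143, 144 and 139 CPM in the control, 172, 171 and 174 CPM in the PRMT5 knockdown and 270.2, 301 and 308 CPM in the MEP50 knockdown. The groups did not overlap, and the log2 fold changes were 0.28 ± 0.0363 and 1.05 ± 0.0360 (edgeR adjusted p = 2.81e-08 and 9.37e-25). ALDH6A1, of valine breakdown, fell in the PRMT5 knockdown (-0.20 ± 0.0676, edgeR adjusted p = 0.0128). This call was lost if control replicate 3 (edgeR adjusted p = 0.073) or replicate 2 of the knockdown (0.0579) was left out. In the MEP50 knockdown ALDH16A1 rose by 0.26 ± 0.0792 (edgeR adjusted p = 0.00547) and ALDH5A1, the succinic semialdehyde dehydrogenase, by 0.18 ± 0.0598 (0.00926). The ALDH5A1 call was lost without control replicate 1 or 2 (0.15 and 0.16, edgeR adjusted p = 0.0616 and 0.0549). ALDH4A1, which breaks down the same pyrroline-5-carboxylate that ALDH18A1 makes, rose by 0.39 ± 0.144 in the MEP50 knockdown (edgeR adjusted p = 0.0222), and this call was lost without control replicate 2 or 3 or MEP50 knockdown replicate 1 or 2 (0.30 to 0.38, edgeR adjusted p = 0.0526 to 0.132). ALDH1A2, ALDH1L1, ALDH3B2 and ALDH8A1 had 0 to 6 reads per library and were not tested.

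Genes around the members were counted in 4 lists, to be read against the 51.0% and 51.7% of all tested genes called in the PRMT5 and the MEP50 knockdown. Of 18 alcohol and retinol dehydrogenases 8 had enough reads, of which 4 fell and none rose in the PRMT5 knockdown (median log2 fold change -0.31 over the 8), and 2 fell and 1 rose in the MEP50 knockdown (median -0.08), so that the share called, 4 and 3 of 8, was near or below that of all genes. RDH11, a retinal reductase, fell from 252 to 170.1 and 173 CPM (log2 fold change -0.57 and -0.54). DHRS3, which reduces retinal to retinol, fell in the PRMT5 knockdown (-0.50) with a value of 0.0034 in the MEP50 knockdown, and RDH10, which oxidises retinol to retinal, fell in the PRMT5 knockdown (-0.39) with a value of 0.12 in the MEP50 knockdown. DHRS4 fell by 0.23 in both. Its call in the PRMT5 knockdown was lost without control replicate 2 (edgeR adjusted p = 0.0629) or PRMT5 knockdown replicate 3 (0.0572), and that in the MEP50 knockdown without control replicate 2 or 3 or MEP50 knockdown replicate 2 (0.0525 to 0.152). The rise in the MEP50 knockdown was that of ADH5 (0.09). Its call was lost without a low-count filter (edgeR adjusted p = 0.129), without control replicate 2 (0.123) and without MEP50 knockdown replicate 3 (0.0911). Without control replicate 2 only 1 gene of this list was called in the MEP50 knockdown.

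Of 22 genes of retinoid binding, retinoic acid receptors and retinoic acid breakdown 11 had enough reads, and 5 rose and 1 fell in the PRMT5 knockdown and 4 rose and 3 fell after MEP50 knockdown (medians 0.12 and 0.06). CYP26B1, which breaks down retinoic acid, rose from 9.07 to 22.5 and 23.4 CPM (log2 fold change 1.31 and 1.37, edgeR adjusted p = 8.34e-17 and 3.15e-17). The receptor gene RARA rose (0.56 and 0.39) and RARG fell (-0.48 and -0.37) in both. STRA6, the retinol uptake receptor, rose in the PRMT5 knockdown (0.46, edgeR adjusted p = 0.0017) and was at 0.16 in the MEP50 knockdown (edgeR adjusted p = 0.3).

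Around ALDH18A1, genes of proline and ornithine metabolism went both ways. Of 12 genes 11 had enough reads, and 5 rose and 2 fell in the PRMT5 knockdown and 4 rose and 4 fell after MEP50 knockdown (medians 0.08 and 0.11). OAT, which links ornithine to the same proline precursor, rose from 55.3 to 106 and 99.7 CPM (0.94 and 0.85), and the arginase gene ARG2 fell (-1.12 and -1.23). The ornithine decarboxylase gene ODC1 rose by 0.11 in the PRMT5 knockdown, a call lost without control replicate 1 (0.09, edgeR adjusted p = 0.0744), and fell by 0.53 in the MEP50 knockdown. Without control replicate 1 only 4 genes of the list were called in the PRMT5 knockdown. GLUD1 rose (0.08, edgeR adjusted p = 0.0429) and P4HA1 fell (-0.09, edgeR adjusted p = 0.047) in that knockdown. Both calls were lost with DESeq2 (DESeq2 adjusted p = 0.106 and 0.0608) and without some single libraries. The GLUD1 call was lost under most alternatives. PYCR1, which turns the product of ALDH18A1 into proline and was singled out after its values were seen, rose in both (0.24 and 0.44).

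The last list held 13 other enzymes of aldehyde or carbonyl metabolism, not all of which reduce or oxidise their substrate. In this list 12 had enough reads. In the PRMT5 knockdown 6 rose and 3 fell, and in the MEP50 knockdown 8 rose and none fell (medians 0.17 and 0.26). Without a low-count filter 5 of these were called higher after MEP50 knockdown, and AKR1A1, AKR7A2 and PTGR1, singled out after their values were seen, no longer passed. In the PRMT5 knockdown 7 to 9 genes of this list were called under the 17 alternatives. The rise of PTGR1 there (0.07, edgeR adjusted p = 0.0453) was lost under most of them. Among these were RLE scaling (edgeR adjusted p = 0.073), upper-quartile scaling (0.0823) and the replicate block (0.0534). The falls of AKR1A1 and AKR7A2 in the PRMT5 knockdown were lost without some single libraries (edgeR adjusted p up to 0.0951 and 0.12). AKR1B10, an aldo-keto reductase that reduces retinal and other aldehydes, rose from 1047 to 1614 and 1738 CPM (0.62 and 0.73), and AKR1B1 rose with it (0.64 and 0.70). The carbonyl reductase gene CBR4 rose (0.44 and 0.52). GSTA4, which conjugates the lipid aldehyde hydroxynonenal, fell in the PRMT5 knockdown (-0.55) and was at -0.17 in the MEP50 knockdown (edgeR adjusted p = 0.152). All values of these lists are log2 fold changes against the control, in the order PRMT5 and MEP50 knockdown where 2 are given.

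**Figure D4:**
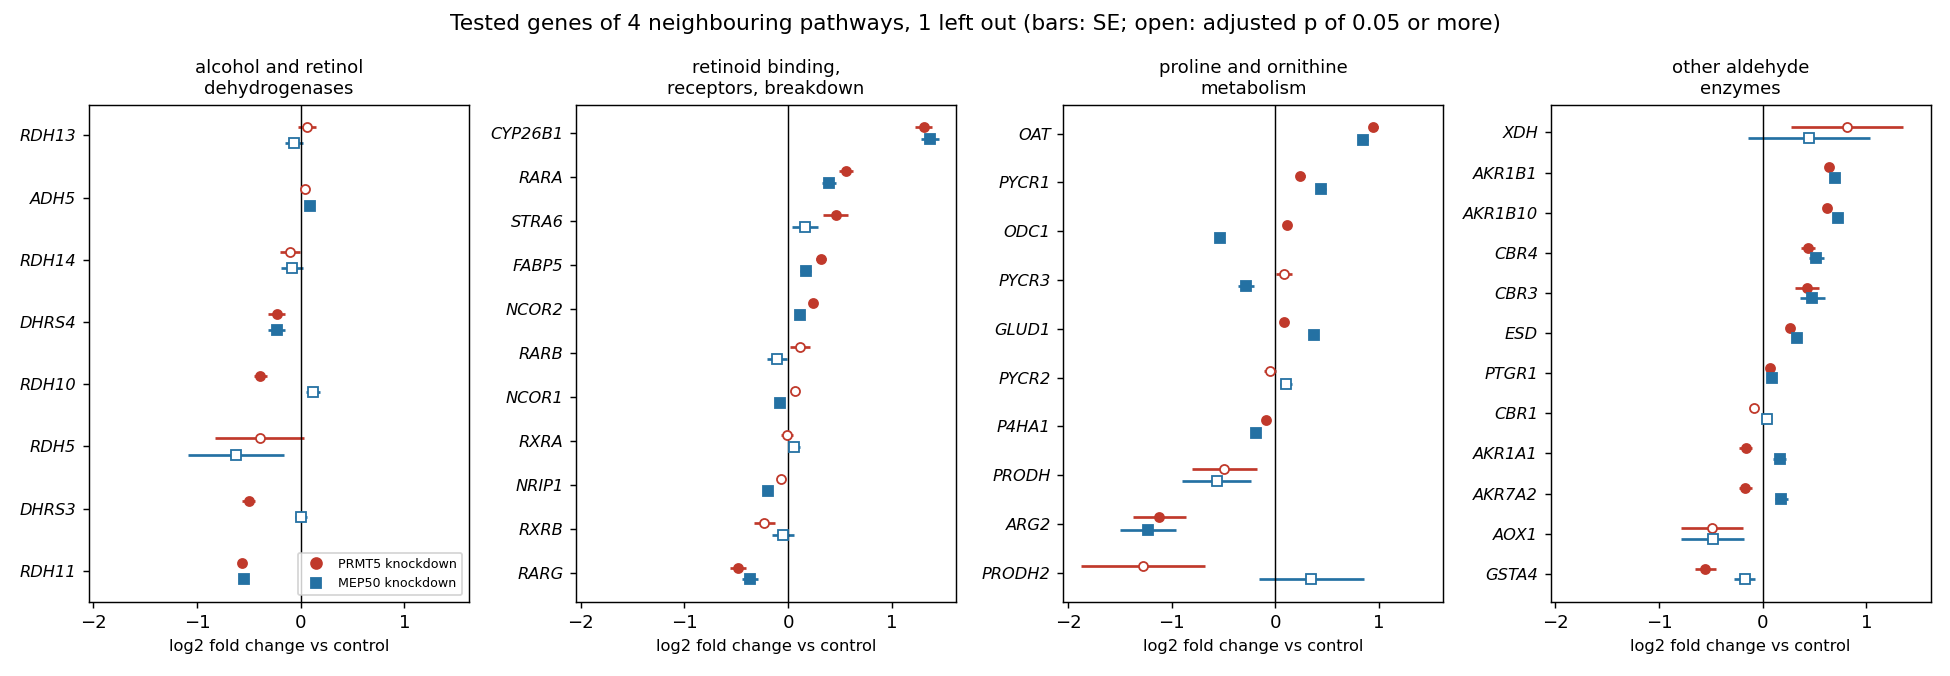
Log2 fold change against the GFP control (x axis, bars are SE) of the tested genes of 4 lists, 1 left out, in the PRMT5 knockdown (circles) and the MEP50 knockdown (squares), with open symbols where the adjusted p was 0.05 or more. RDH11 and RARG lie to the left and CYP26B1, OAT and AKR1B10 to the right in both knockdowns, and DHRS3 and RDH10 have a filled symbol on the left for the PRMT5 knockdown and an open symbol near 0 for the MEP50 knockdown.

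The genes with the most similar profiles were found by the root mean square difference of centred log2 CPM over the 9 libraries, among 10443 other genes that averaged 5 CPM or more. For ALDH1A1, whose own root mean square deviation was 0.17, they were ATPAF1 (0.0214), CHP1 (0.0313) and BLVRA (0.0327). For ALDH3A1 (own deviation 0.14) they were RPS14 (0.0338), VSIG10 (0.0362) and MYO1E (0.038), and for ALDH1A3 (own deviation 0.29) NKX2-5 (0.0624), ARHGEF26 (0.0767) and PRKCE (0.078). The 9 libraries form 3 groups, so these likenesses describe mostly the same 3 group means.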

How the data were processed

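Total RNA was depleted of rRNA and made into stranded libraries, per the labels' protocols. The authors' deposited table holds unnormalized read counts, all whole numbers, by Ensembl identifier and ends with 5 summary lines of the HTSeq kind, which were left out here. The submitters' processing notes name Trim Galore, STAR, HTSeq, DESeq2, edgeR and hg19 with no versions, and the counting options are not given in the sources used here. Further deposited tables, 1 per knockdown, hold log2 fold changes against the control and adjusted p-values from DESeq2 and edgeR, per the file headers, and all their lines are below 0.05 by both.

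The members and lists were chosen with earlier results of these data known. Symbols were found for 44822 of 51796 identifiers, PECAM1 was not matched and is not analysed here, and exon lengths came from GENCODE 29. A single edgeR fit (version 4.0.16, R 4.3.3) took all 9 libraries with group as the only factor, TMM scaling, the filterByExpr filter and robust quasi-likelihood dispersion. P-values were adjusted by Benjamini-Hochberg over 14582 genes, with a threshold of 0.05, and each SE was obtained from the fold change and its F statistic. Library depth was 20806181 to 31586128 reads on genes, and replicates differed by 3.32 to 4.62 times counting variance (chi-square per degree of freedom). The labels call the replicates biological without naming their source, so p-values measure the spread between these samples, which may be technical. The fit was tested on simulated data. As alternatives, scaling (RLE, upper quartile, totals), tool (DESeq2 1.42.0), filter, block, the libraries fitted together and each single library were varied. 1 gene of the proline and ornithine list is counted but not reported here. Named were all ALDH genes, both targets, otherwise at most 4 called genes per list in order of absolute log2 fold change, and the 3 nearest profiles of ALDH1A1, ALDH1A3 and ALDH3A1. Outside that order, PYCR1 and list genes whose calls were lost under an alternative were named after their values were seen.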

Additional observations from a re-analysis of the deposited data

Results flagged for a closer look

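For 2 members all libraries of one knockdown lay below the control and all libraries of the other lay above it. ALDH2 had a log2 difference of -0.3684 and ALDH3B1 of -0.477 between the PRMT5 and the MEP50 knockdown. This difference was not tested, since the members were chosen by it, and ALDH2 did not pass the test in the PRMT5 knockdown.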

How the results depend on the processing

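Under 17 alternatives, 336 of 340 values of members against the control kept their side of the threshold and no called value changed sign. The other 4 are the calls of ALDH1A1 in the MEP50 knockdown and ALDH3B1 in the PRMT5 knockdown that were lost without single libraries. The number of members called was 6 to 7 in each knockdown, and between the knockdowns none of the 10 log2 differences changed sign. Leaving out each library gave 1 to 3 called alcohol and retinol dehydrogenases in the MEP50 knockdown, 2 to 5 other ALDH genes in the MEP50 knockdown and 1 to 3 in the PRMT5 knockdown, and 4 to 7 genes of proline and ornithine metabolism in the PRMT5 knockdown. Without a low-count filter 5 of the other aldehyde enzymes were called in the MEP50 knockdown, in place of 8; the cause was not tested. Same-numbered libraries deviated together weakly at most (correlations of -0.0361 to 0.0517). Between control and MEP50 knockdown all same-numbered pairs were positive (0.0442 to 0.0517), and differently numbered ones ran from -0.0462 to 0.0015. No label says that the numbers mark a shared batch, so they were not taken as pairs. With the replicate block 7 members were called in each knockdown. Counts of 183 to 287 reads per control or MEP50 knockdown library limit the precision for ALDH1A3.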
